A study of Mus musculus with 34 samples.

Results

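The lungs of 20 female mice that breathed filtered air (FA) were compared across the 4 stages of the estrous cycle, to learn how far the basal expression of inflammatory genes in the lung depends on the day of the cycle. They are the FA mice among 34 mice in all, and were grouped by the single stage in their titles, which gave 6 mice in proestrus, 6 in estrus, 4 in metestrus and 4 in diestrus. All were C57BL/6 females (C57BL/6J per the methods), 8 weeks old, kept for 3 h in the exposure chamber with air at 0 ppm of ozone (O3), and per the methods their lungs were taken 4 h after the exposure ended. The other 14 mice breathed 2 ppm of O3 and enter here in the naming of wells, in an alternative fit of all mice, and in the test of whether stage differences depended on exposure.

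In the estrous cycle, ovarian hormones rise and fall over a few days. Estradiol rises with the growing follicles up to proestrus, the surge of luteinizing hormone then triggers ovulation around estrus, and progesterone from the corpora lutea dominates in diestrus after the short transition of metestrus. Receptors for these hormones are found on airway epithelium and on leukocytes, and estrogen and progesterone are known to modulate the transcription of chemokines and cytokines in many tissues. Per the methods, stage was read from vaginal smears and set beside serum hormones, so the stages are those of each mouse's own cycle.

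The measurement was a real-time PCR array with 84 wells for inflammatory and immune genes, run on RNA of the whole lung homogenate, with 1 column of values per mouse. Each well gives a threshold cycle (Ct), the cycle at which the product is first detected. Expression is given as -ΔCt, the Ct of the gene's well subtracted from the average of wells H1, H2, H3 and H5 (the reference wells), on the log2 scale, so that a higher (less negative) value means more transcript and a difference of 1 is taken as 2-fold. Where a gene's well had no Ct, 40 cycles were used, above every measured Ct. In a whole homogenate, fewer cells of a type and less RNA per cell cannot be told apart. The files name no genes, and 17 of the 84 wells could be tied to a gene, while 67 are given by position. No well was tied to a gene that defines lung epithelium, so the labelled tissue could not be checked against its own markers. Wells A9, B9 and C11 carry an unchecked placement from earlier work as Ccl19, Ccr2 and Cxcl3.

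Of the 1680 values of the FA mice, 150 had no Ct (8.93%), and the measured Ct ran from 20.7 to 39.95. A Ct was present in every FA mouse in 63 wells. The number of wells with no Ct per mouse averaged 7 ± 3.46 in proestrus (SD, n = 6), 8.50 ± 2.88 in estrus (n = 6), 6.25 ± 1.71 in metestrus (n = 4) and 8.00 ± 4.08 in diestrus (n = 4). No difference among stages was detected in a permutation test of the F statistic (p = 0.691). Metestrus mice had 4 to 8 such wells, within the range of each other stage. The reference wells had a mean Ct of 21.2 ± 0.737 in proestrus, 20.6 ± 1.45 in estrus, 20.2 ± 1.42 in metestrus and 21.0 ± 1.21 in diestrus, with no detectable difference among stages (permutation p = 0.626). Each reference well set against the other 3 did not differ detectably either, with permutation p-values adjusted over the 4 wells from 0.575 to 0.750. On this measure FA diestrus replicate 2 was the lowest of the FA mice in H1 (-3.62) and H5 (-1.60) and the highest in H2 (1.21).

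A pair of FA mice stood apart in the last wells of the plate, which on arrays of this make hold reverse transcription controls (H7 to H9) and positive PCR controls (H10 to H12), although the files do not label them. FA diestrus replicate 2 had a mean Ct of 27.5 in H10 to H12 and 26.7 in H7 to H9. FA proestrus replicate 1 had 23.6 in H10 to H12, against 19.2 to 21.0 in the other 18 FA mice. In H7 to H9 it had 23.7, against 19.3 to 22.5 in those 18 mice. Ct values were also deposited with different numbers of decimals: 13 FA mice had 3 decimals (3 in proestrus, 5 in estrus, 3 in metestrus, 2 in diestrus), 4 had 6 (2 in proestrus, 1 in estrus, 1 in metestrus), and 3 had more than 6 (1 in proestrus, 2 in diestrus). The values of these last 3 mice, which include both mice above, are nearly all those of means of 2 or 3 numbers with 6 decimals.

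**Figure D1:**
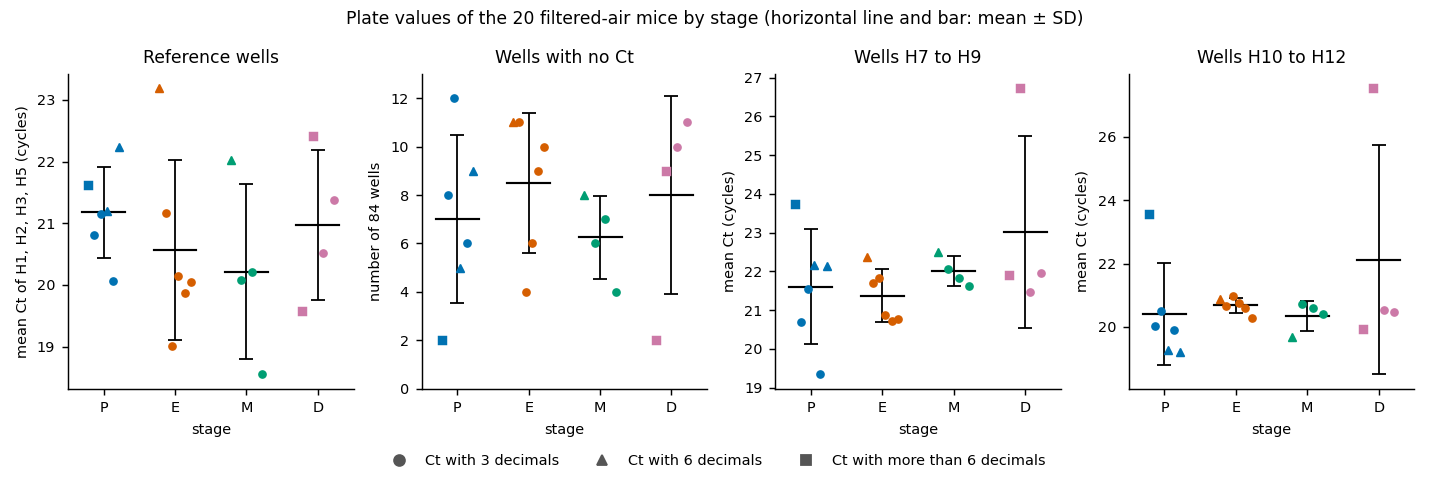
Each point is 1 FA mouse, by stage (P proestrus, E estrus, M metestrus, D diestrus), with the stage mean ± SD as a line and bar. The panels show the mean Ct of the reference wells, the number of the 84 wells with no Ct, and the mean Ct of H7 to H9 and of H10 to H12 in cycles; the stages overlap in all panels, and 1 diestrus mouse lies at 26.7 in H7 to H9 and 27.5 in H10 to H12.

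No difference between stages in the air-exposed lung passed the test, for any named gene or any other well. In each of the 6 pairs of stages, limma called 0 of 84 wells at a false discovery rate (FDR) of 0.05, so that 0% of the wells tested were called. In the F test for any difference among the 4 stages, limma also called 0 wells (0%), and the smallest adjusted p was 0.971. At an unadjusted p under 0.05 there was 1 well between proestrus and estrus (1.19%), 4 between proestrus and metestrus (4.76%), 3 between proestrus and diestrus (3.57%), 3 between estrus and metestrus (3.57%), 2 between estrus and diestrus (2.38%), 2 between metestrus and diestrus (2.38%), and 4 in the F test (4.76%). The smallest adjusted p was 0.348 between proestrus and diestrus and 0.600 between proestrus and metestrus. In the other 4 pairs it lay between 0.825 and 0.985. Each of the 17 named genes and wells A9, B9 and C11 had an adjusted p of 0.994 in the F test.

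**Figure D2:**
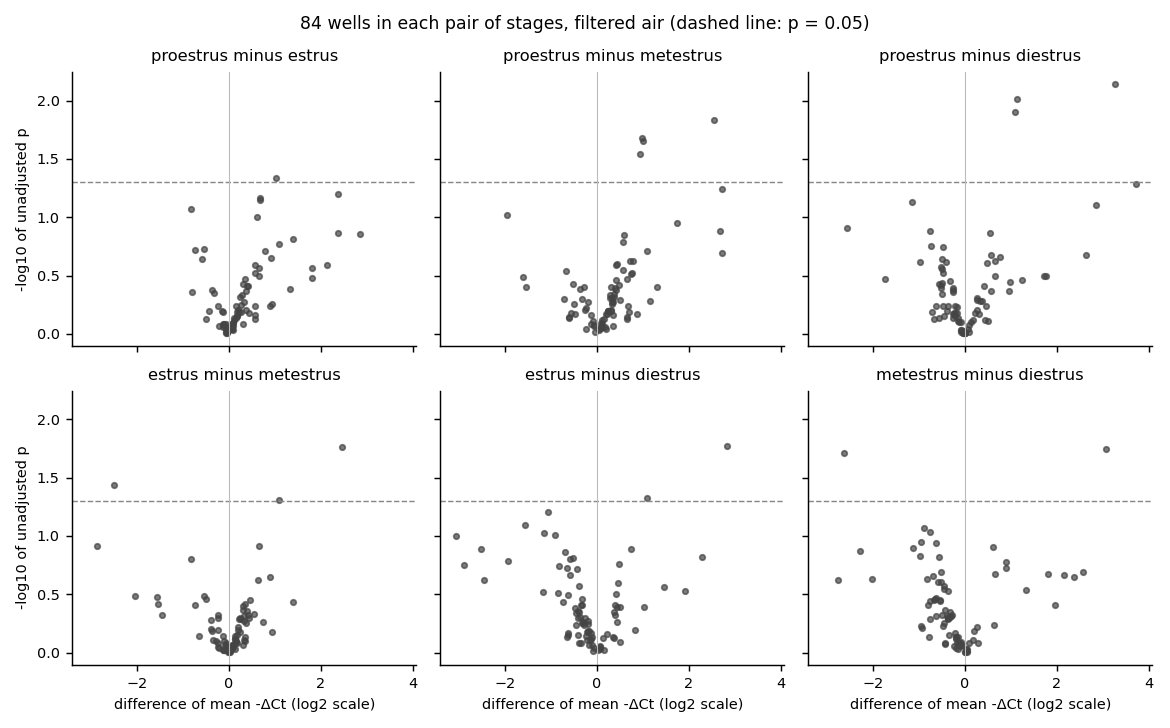
Each point is 1 of the 84 wells, with the difference of mean -ΔCt between the stages on the x axis (log2 scale) and -log10 of the unadjusted p from limma on the y axis, in 1 panel per pair of stages. Between 1 and 4 wells per pair lie above the dashed line, which marks an unadjusted 0.05, and none passed after adjustment over the 84 wells.

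How small a difference these groups could exclude is given by the 95% confidence intervals. Over the 63 wells with a Ct in every FA mouse, the median size of the difference was 0.24 between proestrus and estrus, 0.32 between proestrus and metestrus, 0.33 between proestrus and diestrus, 0.20 between estrus and metestrus, 0.38 between estrus and diestrus and 0.38 between metestrus and diestrus. The median half-width of the interval was 0.94 for proestrus against estrus, the pair with the most mice, and 1.16 for metestrus against diestrus, the pair with the fewest. A 2-fold difference (1 on the log2 scale) lay outside the whole interval in 17 of these 63 wells for proestrus against estrus, but in only 4 for metestrus against diestrus. A 4-fold difference (2 on the log2 scale) lay outside the interval in 57 and 46 wells of those pairs. The intervals of most wells thus still held a 2-fold stage difference, while a 4-fold difference lay outside them.

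Over the same 63 wells the stage means leaned one way. Diestrus was the stage with the highest mean in 35 wells and metestrus the one with the lowest in 30. Diestrus exceeded metestrus in 50 of the 63 wells (median difference 0.34, metestrus minus diestrus -0.34) and estrus in 45 (estrus minus diestrus -0.25). Proestrus exceeded metestrus in 47 wells (0.27) and diestrus exceeded proestrus in 39. The lean toward diestrus moved with 1 mouse, FA diestrus replicate 2, which had the highest value of the 4 diestrus mice in 39 wells. Without that mouse, diestrus exceeded metestrus in 33 wells and estrus in 26, and the median differences were -0.01 and 0.09. Proestrus then exceeded diestrus in 44 wells, while proestrus against metestrus does not involve that mouse. The lean of proestrus over metestrus was smaller in other sets of mice. Among the mice with 3 decimals alone, proestrus was higher in 33 wells and metestrus in 30 (median difference 0.11). Without the mice numbered 31 to 34, proestrus was higher in 40 wells and metestrus in 23 (median difference 0.11). With the mean of 59 array wells as the reference in place of the 4 reference wells, the medians for metestrus and estrus minus diestrus were -0.05 and -0.06. For proestrus minus metestrus the median was 0.04, but that reference centres nearly the same wells by construction. The spread between mice was also widest in diestrus, where the median SD over the 63 wells was 0.95, against 0.76 in proestrus, 0.51 in estrus and 0.52 in metestrus.

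The CXC chemokines that attract neutrophils included genes near the limit of detection in the FA lung, with no Ct in 5 mice in Cxcl5, 2 in well C11 and 1 in Cxcl1. The range of their stage means had a median of 1.84 over the 4 wells of the group (Cxcl1, Cxcl2, Cxcl5 and well C11), against 0.75 over all 84 wells; 0 of the 4 passed the test. Cxcl5, which airway and alveolar epithelium releases, ran in proestrus from -18.84 (no Ct) through a median of -15.47 to -11.88, and in estrus from -19.96 (no Ct) through -18.43 to -12.77. The metestrus mice had -12.53, -19.82, -18.84 and -20.41, and the diestrus mice -13.83, -17.58 (no Ct), -17.83 and -18.62 (no Ct). Every stage thus held 1 or more mice several cycles above the others of that stage, and all stages overlapped. The stage means of Cxcl5 spanned 2.66, from -15.2 in proestrus to -17.9 in metestrus, with a residual SD of 2.77 and an adjusted p of 0.994 in limma's F test.

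The division in Cxcl5 moved with the number of decimals of the Ct values. The 4 mice with 6 decimals lay between -12.77 and -11.88, and the 13 mice with 3 decimals between -20.41 and -16.64, with no overlap. In these 13 mice the Ct of Cxcl5 lay between 37.2 and 39.9 or was absent. Their values, and stage means over them, thus reflect detection and the reference wells as much as level. The 3 mice with more than 6 decimals lay between -17.58 and -13.83. Number of decimals accounted for 83.4% of the variance of Cxcl5 and stage for 15.9% (the shares overlap, since the decimals are unevenly spread over stages). Among the 13 mice with 3 decimals, Cxcl5 averaged -17.55 in proestrus (n = 3), -18.56 in estrus (n = 5), -19.69 in metestrus (n = 3) and -18.23 in diestrus (n = 2), and limma's F test among these mice had an adjusted p of 0.629.

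The other neutrophil chemokines varied as widely within stages as between them. Cxcl2, made by macrophages, had means of -9.32 ± 0.94 in proestrus (SD, n = 6), -9.18 ± 1.34 in estrus (n = 6), -10.07 ± 0.49 in metestrus (n = 4) and -9.61 ± 1.43 in diestrus (n = 4). The single highest and lowest Cxcl2 values of the 20 mice were -7.70 in an estrus mouse and -11.42 in a diestrus mouse. Cxcl1, a ligand of the same receptor, Cxcr2, ran from -17.93 in a metestrus mouse to -10.99 in an estrus mouse, and its 1 missing Ct was in a diestrus mouse. Its stage means spanned 1.02, with a residual SD of 1.97. In well C11 the mean was -11.7 in proestrus and -14.5 in diestrus, and this range of 2.84 included 2 mice with no Ct, 1 in estrus at -18.83 and 1 in diestrus at -18.62.

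Cxcl10, the interferon-inducible ligand of Cxcr3 on T cells, was detected in every FA mouse. In proestrus it ran from -8.71 through a median of -7.82 to -6.91, and in estrus from -9.44 through -8.76 to -6.66. The metestrus mice had -6.92, -8.78, -8.66 and -9.34. The diestrus mice had -8.08, -5.27, -7.90 and -7.92, and the value of -5.27 is that of FA diestrus replicate 2, so that the other 3 lay inside the range of proestrus. The stage means spanned 1.15, with diestrus highest and estrus lowest. Here too the mice with 6 decimals were high: their 4 values lay between -6.96 and -6.66, against -9.44 to -7.90 in the 13 mice with 3 decimals.

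**Figure D3:**
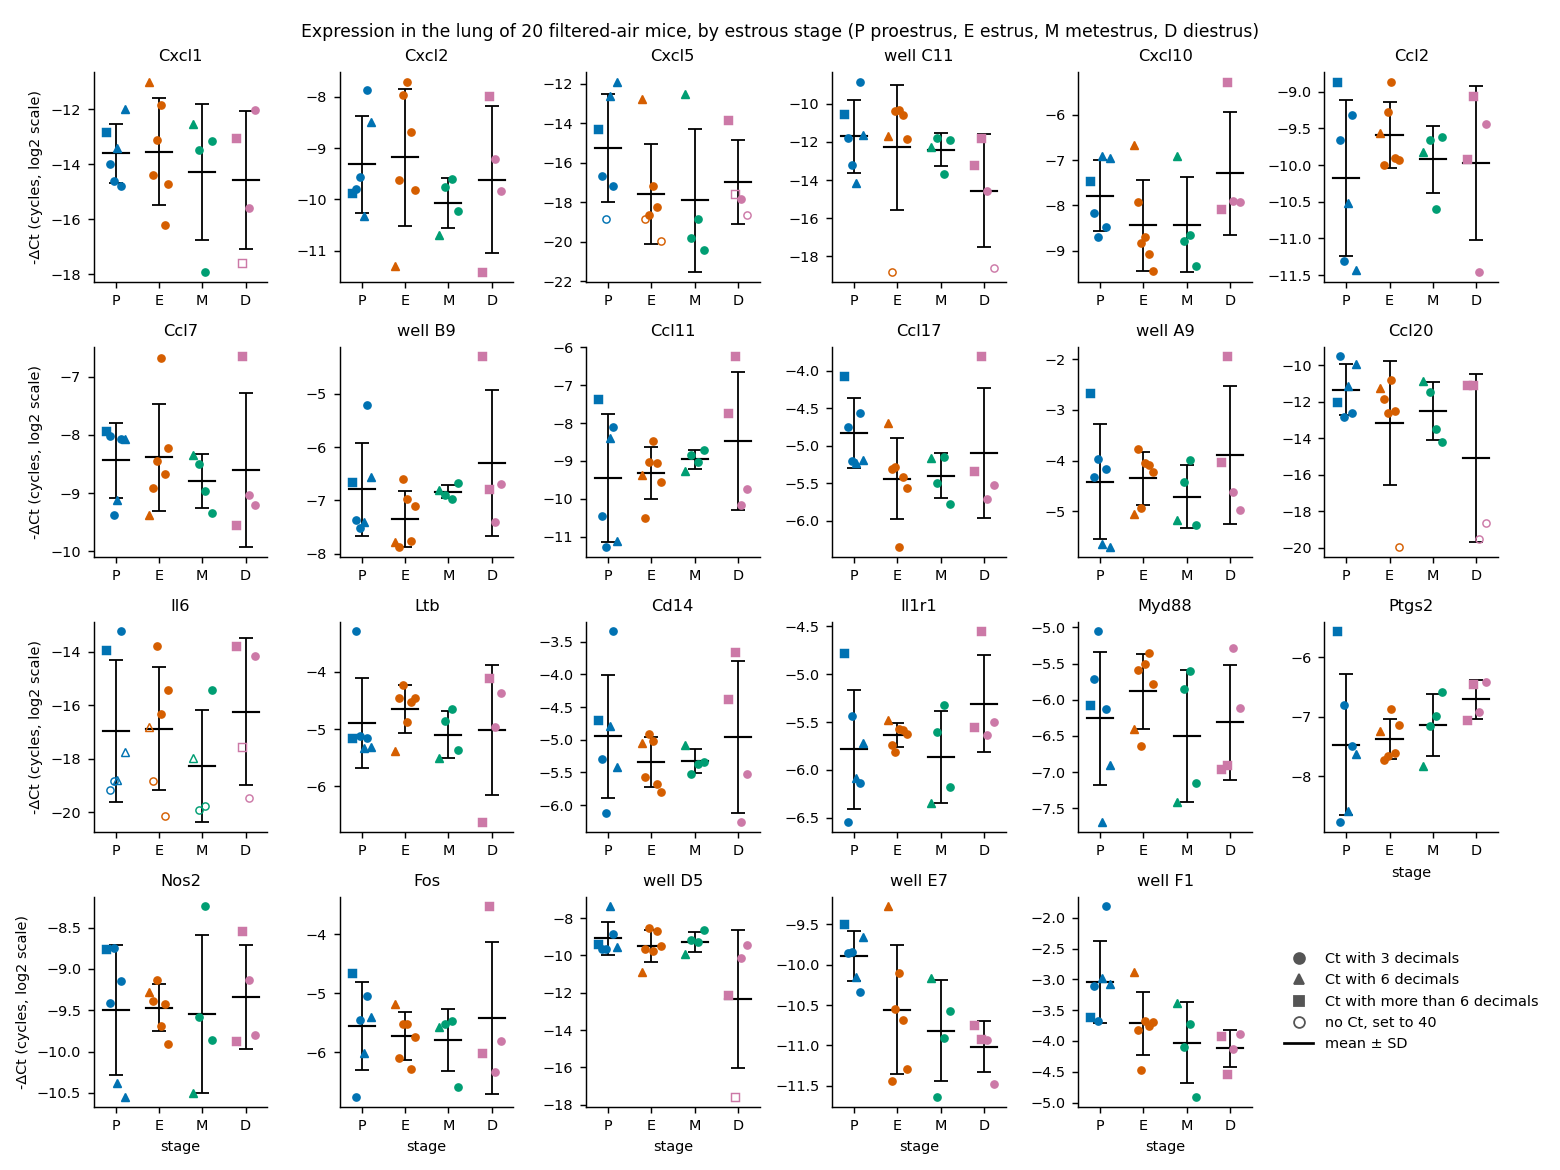
Each panel is 1 gene or well, with -ΔCt on the y axis (log2 scale) and stage on the x axis (P proestrus, E estrus, M metestrus, D diestrus); each point is 1 FA mouse, symbols give the number of decimals of its Ct values, open symbols mark no Ct, and lines and bars are the mean ± SD. Stages overlap in every panel except proestrus against diestrus in wells E7 and F1, and in Cxcl5 the 4 mice with 6 decimals lie between -12.77 and -11.88.

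Of the chemokines for monocytes and well B9, 0 of 3 passed the test. Ccl2, the main ligand of Ccr2 on monocytes, averaged -10.18 ± 1.07 in proestrus, -9.59 ± 0.45 in estrus, -9.92 ± 0.46 in metestrus and -9.97 ± 1.06 in diestrus. Its stage means therefore lay within 0.59, and no interval of any pair of stages reached beyond 1.58, so a 4-fold stage difference in Ccl2 was outside all 6 intervals. Ccl7, a related monocyte chemokine, had stage means within 0.40 and its farthest interval bound was also 1.58. Other named genes were less narrowly bounded. Their farthest bound lay beyond 2 in Ccl20 (7.48), Cxcl5 (6.20), Il6 (5.48), Cxcl1 (3.54), Ccl11 (2.67), Cxcl10 (2.62) and Cxcl2 (2.37). For those genes a 4-fold stage difference was not outside all intervals. In well B9, diestrus was highest at -6.29 ± 1.37 and estrus lowest at -7.35 ± 0.53, a range of 1.06 that rested in part on FA diestrus replicate 1 at -4.30, the other 3 diestrus mice lying between -7.40 and -6.69. The median range of the stage means over these 3 wells was 0.59.

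Among the CC chemokines of type 2 and lymphoid responses, 0 of 4 wells passed the test. Ccl11 (eotaxin), which attracts eosinophils, had means from -9.45 in proestrus to -8.48 in diestrus, a range of 0.97. Its 4 metestrus mice were close together, at -9.28, -8.83, -9.02 and -8.71, while the diestrus mice were spread over -7.74, -6.24, -10.18 and -9.75. Both of the high diestrus values belong to mice with more than 6 decimals, and the third mouse of that kind, in proestrus, was the highest of its stage at -7.35. Ccl17, a ligand of Ccr4 on T helper cells, averaged -4.83 ± 0.47 in proestrus, -5.44 ± 0.53 in estrus, -5.40 ± 0.30 in metestrus and -5.10 ± 0.87 in diestrus, and its farthest interval bound was 1.38. Well A9 had stage means within 0.82, from -4.71 in metestrus to -3.89 in diestrus.

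Ccl20, which epithelium makes to attract Ccr6-bearing dendritic cells and T cells, had the widest range of stage means of all 84 wells, at 3.72, when no Ct was set to 40. With 36 in its place the range was 1.72, below those of Cxcl5 (3.33) and well D5 (2.25). Measured Ct values of Cxcl5 reached 39.9, however, so 36 ranks its mice with no Ct ahead of some with a measured Ct. In proestrus it ran from -12.87 through a median of -11.58 to -9.53. In estrus it ran from -19.96 through -12.19 to -10.83, and the lowest value had no Ct. The metestrus mice had -10.87, -11.48, -13.48 and -14.21, and the diestrus mice -11.11, -11.11, -19.49 and -18.62. The last 2 had no Ct, so diestrus split into mice at the level of proestrus and mice in which Ccl20 was not detected. The mean was -11.4 ± 1.39 in proestrus and -15.1 ± 4.6 in diestrus. The 95% interval of their difference ran from -0.03 to 7.48, and its adjusted p was 0.930 (limma). Both of these diestrus mice with no Ct had 3 decimals and both others more than 6, so that among the mice with 3 decimals the level in diestrus is set by the value used for no Ct.

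Cytokines showed no stage pattern that passed the test (0 of 2). Il6 was at the limit of detection in the FA lung, with no Ct in 12 of 20 mice: 4 of 6 in proestrus, 3 of 6 in estrus, 3 of 4 in metestrus and 2 of 4 in diestrus. The mice with a Ct lay at -13.95 and -13.24 in proestrus, -13.79, -16.34 and -15.42 in estrus, -15.42 in metestrus, and -13.78 and -14.17 in diestrus. Since most values are set by the Ct of 40, the range of 2.02 of its stage means is a range of detection as much as of level, and with 36 for no Ct it was 1.02. Ltb (lymphotoxin beta), made by lymphocytes and needed for lymphoid tissue, was detected in all mice, and its stage means lay within 0.45, from -5.10 in metestrus to -4.65 in estrus.

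Receptors and signalling of innate immunity had a median range of the stage means of 0.55 over Cd14, Il1r1 and Myd88, and 0 of the 3 passed the test. Cd14, the co-receptor for lipopolysaccharide on monocytes and macrophages, averaged -4.95 ± 0.94 in proestrus, -5.34 ± 0.38 in estrus, -5.33 ± 0.18 in metestrus and -4.95 ± 1.16 in diestrus. The Il1r1 values (receptor of interleukin 1) of the 6 estrus mice all lay between -5.81 and -5.48, and its stage means lay within 0.55. Myd88, the adaptor of Toll-like and interleukin 1 receptors, ran from -7.69 to -5.05 in proestrus, from -6.64 to -5.36 in estrus, over -7.42, -5.85, -5.60 and -7.15 in metestrus, and over -6.95, -6.91, -5.28 and -6.11 in diestrus. Its stage means lay within 0.62, and no interval of a pair reached beyond 1.7.

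Neither of the 2 inducible enzymes passed the test, nor did the immediate early gene Fos. Nos2, the inducible nitric oxide synthase, had the narrowest range of the named genes, 0.21, with means of -9.50 ± 0.79 in proestrus, -9.47 ± 0.28 in estrus, -9.55 ± 0.95 in metestrus and -9.34 ± 0.63 in diestrus. Stage accounted for 1.32% of its variance, and its farthest interval bound was 1.25. Ptgs2, the inducible cyclooxygenase, had means in the order proestrus -7.47 ± 1.18, estrus -7.37 ± 0.34, metestrus -7.14 ± 0.51 and diestrus -6.71 ± 0.32. The 4 diestrus mice had -7.05, -6.45, -6.92 and -6.42, inside the proestrus range of -8.77 to -5.57, and no neighbours in that order differed beyond their spread. Fos, a component of the AP-1 transcription factor that responds within minutes to many stimuli, had stage means within 0.37.

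The 3 wells with the smallest p in the F test, D5, E7 and F1, are given by position, since they could not be tied to a gene, and they are described because of that p. All 3 were highest in proestrus and lowest in diestrus. Well E7 ran in proestrus from -10.34 through -9.85 to -9.49 and in estrus from -11.44 through -10.62 to -9.28. Its metestrus mice had -10.16, -11.64, -10.90 and -10.57, and its diestrus mice -10.75, -10.92, -10.93 and -11.48. Proestrus and diestrus did not overlap in E7, while estrus and metestrus overlapped with both. The difference between proestrus and diestrus was 1.13 ± 0.39 (SE; 95% interval 0.31 to 1.95), with an adjusted p of 0.348 (limma).

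Well F1 had the same order of means. In proestrus it ran from -3.67 through -3.09 to -1.81, and in estrus from -4.46 through -3.73 to -2.88. The metestrus mice had -3.38, -4.09, -3.73 and -4.91, and the diestrus mice -3.93, -4.54, -4.13 and -3.89. Proestrus and diestrus again did not overlap, and their difference was 1.08 ± 0.39 (SE; 95% interval 0.26 to 1.90), with an adjusted p of 0.348 (limma). The choice of these wells by their p means that the absence of overlap is a description, in a comparison in which 3.57% of all wells were at an unadjusted p under 0.05. Among the 13 mice with 3 decimals the differences were 1.19 in E7 and 1.15 in F1, and with the number of decimals as a term in the model 1.07 and 0.80.

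In well D5 the low diestrus mean rested on 2 of the 4 mice, both with more than 6 decimals. In proestrus it ran from -9.67 through -9.47 to -7.37, in estrus from -10.90 through -9.57 to -8.52, and in metestrus over -9.94, -9.19, -9.29 and -8.64. The diestrus mice had -12.14, -17.58, -10.14 and -9.46, and the mouse at -17.58, FA diestrus replicate 2, had no Ct. Proestrus exceeded diestrus by 3.25 ± 1.08 (SE), with an adjusted p of 0.348 (limma). Without FA diestrus replicate 2 the difference was 1.5, and among the mice with 3 decimals, which leaves out the mouse at -12.14 as well, it was 0.41.

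Across all 84 wells, the mice separated by the number of decimals of their Ct values, while the stages overlapped. These wells include those with no Ct in some mice, where -ΔCt is the reference mean minus 40. Separation over the 63 wells with a Ct in every FA mouse was not examined. The first principal component held 25.3% of the variance. The 13 mice with 3 decimals lay on it between -9.27 and -0.18, the 4 with 6 decimals between 6.71 and 7.71, and the 3 with more than 6 between 9.02 and 11.3, with no overlap, and each stage had mice on both sides of 0. Number of decimals accounted for 88.1% of the variance along this component and stage for 10.3%. What the decimals stand for (an instrument run, a software export or a set of plates) is not given in the sources used here.

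**Figure D4:**
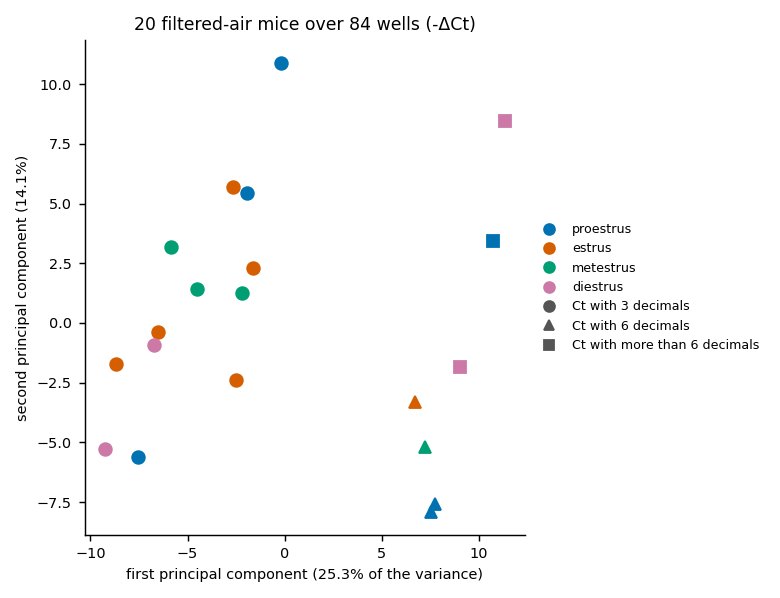
Principal components of the 20 FA mice over the 84 wells (-ΔCt), with the first component (25.3% of the variance) on the x axis and the second on the y axis; colour gives the stage and symbol the number of decimals of the Ct values. All mice with 3 decimals lie left of 0 and all others right of 6, and each stage has mice on both sides.

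With stage in the model, 24 of 84 wells differed among mice with 3, 6 and more decimals at an FDR of 0.05 (28.6% of the wells tested), and 32 did so at an unadjusted p under 0.05. Of the 17 named genes 4 were among them: Cxcl5 (adjusted p = 1.9e-05), Cxcl10 (0.00407), Ccl11 (0.0247) and Myd88 (0.0247), as was well A9 (0.00220). In these the direction was not shared. Mice with 6 decimals exceeded those with 3 by 5.89 in Cxcl5 and 1.85 in Cxcl10, but were lower by -1.30 in Myd88 and -1.06 in A9. Of the 15 wells called between 6 and 3 decimals, 10 were higher and 5 lower with 6, and of the 12 called between more than 6 and 3, all were higher with more than 6. Of the 24 wells, Cxcl5 had no Ct in 5 FA mice, C9 in 13 and E5 in 17. The others had a Ct in every FA mouse. Where there was no Ct, -ΔCt follows the reference wells alone. Their mean Ct was 20.23 in mice with 3 decimals, 22.16 with 6 and 21.20 with more. The part of this in the calls of Cxcl5, C9 and E5 was not tested. The median share of variance per well was 25.9% between numbers of decimals and 11.02% between stages, and the former was the larger in 68 of the 84 wells. Any split of the mice takes up some variance by chance, more so with 4 stages than with 3 numbers of decimals. The shares given here and above are therefore descriptions and not tests.

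**Figure D5:**
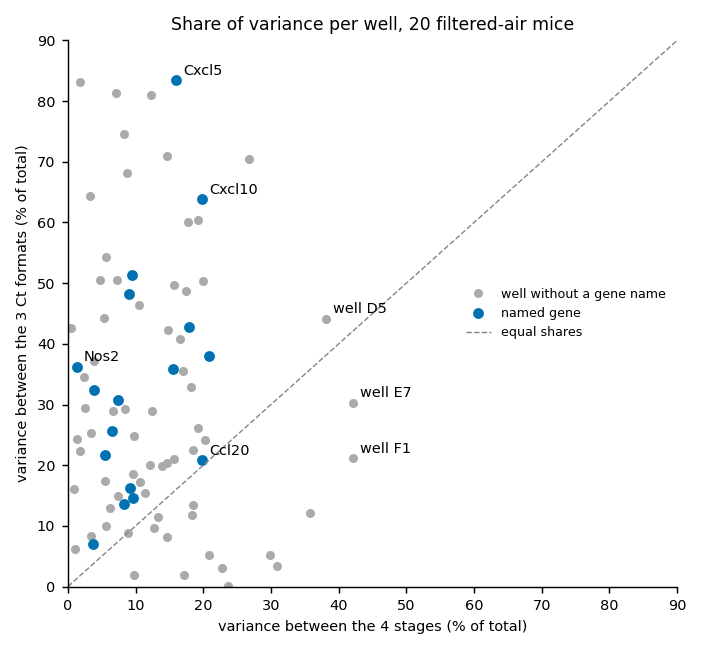
Each point is 1 of the 84 wells; the x axis is the percent of the variance among the 20 FA mice that lies between the 4 stages, and the y axis the percent that lies between the 3 Ct formats (3, 6 or more decimals). Of the 84 wells, 68 lie above the dashed line of equal shares, with Cxcl5 at 15.9% on the x axis and 83.4% on the y axis, while E7 and F1 lie below it at 42.1% by stage.

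Because the numbers of decimals were spread unevenly over the stages, the stage comparison was also made with number of decimals as a term and in the 13 mice with 3 decimals alone. Both left 0 wells called in all 6 pairs and in the F test. The part of the decimals in any single stage difference was not tested beyond these fits. Whether stage differences in air were unlike those after O3 was tested as an interaction in all 34 mice, where limma called 0 of 84 wells (0%), with 6 at an unadjusted p under 0.05 and a smallest adjusted p of 0.190. The O3 mice were 5 in proestrus and only 3 in each of estrus, metestrus and diestrus. How large an interaction these groups could exclude was not computed.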

How the data were processed

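The authors deposited a table of Ct values in cycles, with no normalization, and a table of fold changes (a linear ratio, 2 to the power of -ΔΔCt). Per the methods, 400 ng of RNA was reverse transcribed for each array. The deposited fold changes were equal to values recomputed from the Ct table in 3026 of 3026 cases (tolerance 0.0006) when wells H1, H2, H3 and H5 served as reference and no Ct counted as 36. A well was named where its difference of mean fold changes between exposure groups had exactly 1 match among the genes the study lists. Threshold settings are not given in the sources used here. How many molecules a Ct stands for is unknown, so the number of mice and the absence of a Ct limit the precision.

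Stage means of -ΔCt were fitted to the 20 FA mice with limma 3.58.1 (lmFit and eBayes, 16 residual degrees of freedom) in R 4.3.3. The 6 pairs and an F test were adjusted by Benjamini-Hochberg over the 84 wells (FDR 0.05, two-sided), and the interaction came from 8 group means of 34 mice. Values with 1 number per mouse were compared with permutation tests (100000 resamples). No Ct value was shared by any of the 190 pairs of FA mice. The scripts were tested on simulated data. Permutations used numpy 2.4.6 in Python 3.11.15, tables pandas 2.3.3, and plots matplotlib 3.10.9.

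The text names every well tied to a gene, wells A9, B9 and C11, and the 3 wells with the smallest p in the F test. The mice, lists and tests were chosen with earlier results of these data known, and the description by number of decimals and the fit without the 2 mice with the highest Ct in H10 to H12 were chosen after the values were seen. The alternatives were other reference wells, other values for no Ct, a filter on low wells, limma's other options, the deposited fold changes, adjustment over the 6 pairs together, other sets of mice, replicate number as a block, and each mouse left out.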

Additional observations from a re-analysis of the deposited data

Results flagged for a closer look

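Single mice stood far from the rest of their stage in 8 of the 92 groups of 4 or 6 mice formed by the named wells, where chance gives about 1 in 20, and in 35 of 336 groups over all wells. FA diestrus replicate 2 was far above its stage in Cxcl10 (-ΔCt -5.27) and Il1r1 (-4.55), and its control wells had mean Ct values of 26.7 (H7 to H9) and 27.5 (H10 to H12). FA proestrus replicate 1 had a mean of 23.6 in H10 to H12. Mice with no Ct were far below their stage in Ccl20 (FA estrus replicate 6, -19.96) and well C11 (FA estrus replicate 2, -18.83). FA metestrus replicate 4 was low in Fos at -6.59, and FA proestrus replicate 2 was high in Ltb at -3.29. In proestrus, replicate 4 was high in well D5 (-7.37) and replicate 5 in well F1 (-1.81). Over all wells, FA estrus replicate 1 was the mouse that stood far from its stage in 10 of these 35 groups, more than any other mouse. It was the only estrus mouse with 6 decimals.

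Well H6, which on arrays of this make holds a control for genomic DNA and which enters no comparison above, had a Ct in 3 of the 20 FA mice: 34.27 in FA estrus replicate 4, 35.45 in FA metestrus replicate 1 and 34.91 in FA diestrus replicate 1. The share of other wells' signal that came from genomic DNA was not tested.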

How the results depend on the processing

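The stage pairs and the F test stayed at 0 called wells under all alternatives run, and of 1482 values under alternatives 1480 kept their side of the threshold. Wells at an unadjusted p under 0.05 ranged from 0 to 8 per pair, the smallest adjusted p of any pair was 0.0740 (proestrus against diestrus without the mice numbered 31 to 34), and adjustment over the 6 pairs together gave a smallest of 0.991. The FA mice among those numbered 31 to 34 are the 3 with more than 6 decimals. Leaving them out left 2 mice in diestrus. For the named wells, all 895 values kept their side of the threshold, with a smallest adjusted p in the F test of 0.439. The interaction of stage and exposure was the exception: with the deposited fold changes on the linear scale it gave 1 well (Ccl20), and when each mouse was left out in turn 0 to 1 (1 well, E1, without FA diestrus replicate 3), and the cause was not tested. The filter on low wells left 79 wells and removed Cxcl5 and Il6. Replicate numbers were not taken to pair mice of different stages, since nothing in the labels says that a number ties them. Of 26 same-numbered pairs, 13 had deviations correlated above 0.1 (r from -0.27 to 0.58, median 0.10, against -0.04 for different numbers). Replicate 1 of every stage was a mouse with 6 or more decimals, so replicate number and number of decimals were partly tied. Of the 20 mice, 10 correlated best with their own number, and the share to be met without pairing was not computed. The fit with a replicate block called 0 wells. With 4 mice in metestrus and diestrus, the intervals of most wells still held a 2-fold difference.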
